A study of Mus musculus with 6 samples.

Results

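The 10 genes described here encode the gelatinases Mmp2 and Mmp9, the further matrix metalloproteinases (MMPs) Mmp11, Mmp14, Mmp19 and Mmp23, the tissue inhibitors of metalloproteinases (TIMPs) Timp1, Timp2 and Timp3, and Reck. They were chosen by gene symbol, and all 10 were found among the 55364 genes of the count table. The RNA came from primary mouse lung fibroblasts (LFs) of the C57Bl6/J background, isolated from wt mice and from Tks5+/- littermates. Tks5 (gene Sh3pxd2a) is a scaffold protein of podosomes, the actin-rich adhesions at which cells degrade the extracellular matrix (ECM). All 6 libraries, 3 of each genotype, came from LFs kept for 24 h in serum-free medium with TGFβ at 10 ng/ml, so there was no untreated control and every difference is one between genotypes under TGFβ. In the labels the second genotype is a knockout, whereas the paper describes heterozygous LFs that keep 1 intact allele in every cell, and the name Tks5+/- is used here. The labels do not say whether the 3 libraries of a genotype came from separate mice, so p-values measure the spread between these libraries only.

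Gelatinases cut denatured collagen and the collagen IV of basement membranes. Pro-Mmp2 is activated at the cell surface by Mmp14, the membrane-bound MMP most closely tied to pericellular matrix degradation, in a complex for which Timp2 is the adaptor. TIMPs block the active site of MMPs, and Timp3 also blocks several ADAM sheddases and stays bound to the ECM, while Reck is an inhibitor that is anchored in the membrane.

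Each library held between 1344507 and 2369882 reads counted to genes, and 10346 genes passed the filter on low counts and were tested with the quasi-likelihood test of edgeR. Levels are given as CPM, the counts of a gene for every 1e6 counts of the scaled library size, and values by library stand in the order of replicates 1, 2 and 3 throughout. The assay reads the end of each transcript, so that a level is not divided by transcript length. Libraries grouped by genotype, with Pearson's r of log CPM of 0.9497 to 0.963 within and 0.811 to 0.862 between genotypes. Counts of Sh3pxd2a were 205, 190 and 284 in wt libraries and 238, 258 and 260 in Tks5+/- LFs, so that this gene's counts did not check the labels. Of 12 fibroblast markers, all detected in every library, 4 were called higher (Thy1, Vim, Pdgfra and Col3a1), 2 lower (Pdgfrb and Fn1) and 6 neither way. Their sum was 14275 to 16005 CPM in wt LFs and 17595 to 19835 CPM in Tks5+/- LFs, but S100a4, which was not called, gave 8216 to 13110 CPM of it, and the other 11 overlapped at 5241 to 6607 CPM and 6047 to 9291 CPM. Gm42674, which overlaps the end of S100a4 on the same strand, had 100.4% to 101.4% of its counts. Over 17 macrophage markers the sum was 445, 369.8 and 2281 CPM in wt replicates 1, 2 and 3, with every marker detected in each, against 141 to 152 CPM in Tks5+/- LFs, where Ptprc, Adgre1 and Marco had 0 counts in all 3 libraries. Wt replicate 3 therefore stood apart, and the values of the results that turned on it are given without it as well. Of 9 endothelial markers, which summed to 115 to 149 CPM in wt and 45.6 to 60.4 CPM in Tks5+/- LFs, 5 were tested, of which 4 were lower and Ramp2 was not called (0.32). The end of Ramp2 overlaps Vps25 on the same strand, which had 91.7% to 102% of its counts. This value therefore cannot be assigned to Ramp2 alone. Pecam1 and Tek were at 0 in all 3 Tks5+/- libraries and detected in each wt library. Among 9 neutrophil markers only S100a8 was tested, at 18.0, 20.3 and 49.3 CPM in wt LFs against 0.585 to 3.07 CPM, and it was lower. The other 8 had 1, 2 and 7 counts in all in wt LFs and at most 1 in a Tks5+/- library, and S100a9, Elane, Retnlg and Csf3r had none in any library. Over 5 mesothelial markers the sum was 25.1 to 38.2 CPM in wt and 4.09 to 10.4 CPM in Tks5+/- LFs, and both that were tested, Upk3b and Upk1b, were lower. S100a8, Upk3b, Upk1b and the endothelial Pecam1, Kdr and Emcn passed the filter on low counts through the wt libraries alone. Only a lower level in Tks5+/- LFs was open to them, so these calls add nothing to their counts. Of 11 epithelial markers 3 were tested, and Krt18 and Cldn4, kept by the filter through wt counts alone, were lower and Ager higher (1.82). The 10 other than Ager had 55, 47 and 145 counts in all in wt LFs and 7, 5 and 3 in Tks5+/- LFs. Smooth muscle and pericyte markers summed to 4865 to 5750 CPM in wt and 6287 to 7169 CPM in Tks5+/- LFs over 8 genes, of which 7 were tested, with 3 lower and 2 higher, among the latter Tagln, whose counts are shared with Pcsk7. Of 5 sex-linked genes 2 were tested, and Xist had 0 counts in every library. Ddx3y was at 94.0, 85.1 and 77.9 CPM in wt and 13.7, 11.1 and 10.7 CPM in Tks5+/- LFs. Its log2 fold change was -2.84 (edgeR, adjusted p = 1.45e-08), while Eif2s3y was not called (-0.23). Uty had 4, 15 and 23 counts in wt and 6, 3 and 6 in Tks5+/- LFs. Kdm5d had 2, 9 and 5 counts in wt and 3, 8 and 2 in Tks5+/- LFs, and both were below the filter. The part of sex or donor in these values was not tested. In bulk RNA, fewer cells of a type and less RNA per cell cannot be told apart, and the part of other cell types in the differences given here was not tested.

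Of the 10 genes, 8 had enough counts to be tested, and 4 of them, Mmp2, Mmp23, Timp2 and Timp3, were called lower in Tks5+/- LFs (edgeR, with thresholds of 0.05 on the adjusted p and 1.2 on the fold change). None of the 8 was called higher. Over all genes tested, 22.1% were called lower and 22.8% higher, 44.9% in either direction, so the genotypes differed widely. In 4 of the 8 all Tks5+/- libraries lay below all wt libraries, beside 27.6% of all genes tested, and in 0 of the 8 all lay above, beside 26.1%. The median log2 fold change of the 8 genes was -0.65, beside -0.046 over all genes tested. Mmp11, Mmp14, Mmp19 and Timp1 were not called, and Mmp9 and Reck were below the filter.

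**Figure D1:**
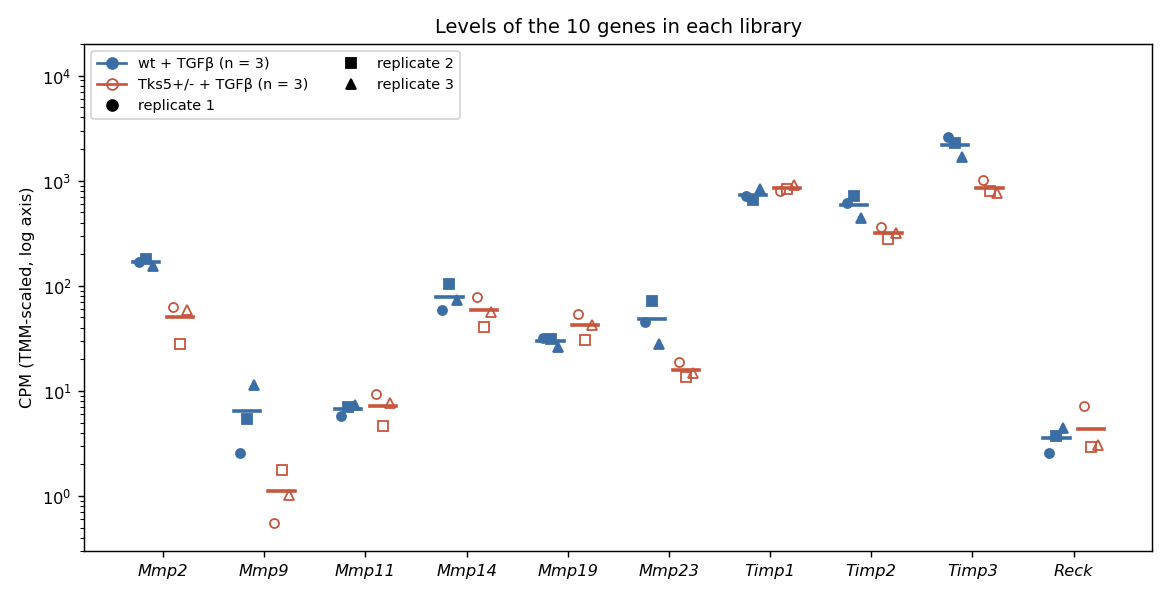
Level of each of the 10 genes in each of the 6 libraries, in CPM on a log axis, with filled symbols for wt LFs, open symbols for Tks5+/- LFs, a symbol shape for each replicate and a bar at the mean of 3 libraries. Timp3 and Timp1 are the most abundant, Mmp9 and Reck the least, and the Tks5+/- libraries lie wholly below the wt libraries for Mmp2, Mmp9, Mmp23, Timp2 and Timp3.

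The gelatinase Mmp2 (ENSMUSG00000031740, forward strand, chr8:92827291-92853420 of GRCm38) had 261, 333 and 419 reads in wt and 115, 48 and 115 in Tks5+/- LFs. On the CPM scale these were 168, 178 and 155 in wt LFs and 63.1, 28.1 and 58.9 in Tks5+/- LFs. The wt libraries lay close together, Tks5+/- replicate 2 was the lowest, and the groups did not overlap. The mean fell from 167 ± 11.4 CPM (SD, n = 3) to 50.01 ± 19.1 CPM (SD, n = 3), a 3.34-fold difference of means. The log2 fold change was -1.73 (standard error 0.25, 95% interval -2.25 to -1.22, edgeR, adjusted p = 8.84e-06). For 3 against 3 libraries the exact permutation test, two-sided, cannot go below p = 0.1, which was its value for each gene whose groups did not overlap. Without wt replicate 3, the library with the highest macrophage marker sum, the log2 fold change of Mmp2 was -1.79 (edgeR, adjusted p = 2.98e-06).

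The gelatinase Mmp9 (ENSMUSG00000017737, chr2:164940780-164955850), a product of macrophages and neutrophils as well as of fibroblasts, was close to the limit of detection. It had 4, 10 and 31 reads in wt and 1, 3 and 2 in Tks5+/- LFs, which were 2.57, 5.35 and 11.5 CPM and 0.549, 1.76 and 1.02 CPM. The highest level was in wt replicate 3, the library with the highest macrophage marker sum and the most S100a8, and the groups did not overlap. Over the pooled libraries, 45 counts in wt LFs against 6 in Tks5+/- LFs gave a level 6.72-fold higher in wt LFs (95% exact interval 2.86 to 19.3, which covers counting error only). Without wt replicate 3 it was 3.74-fold higher (95% exact interval 1.35 to 11.9). Mmp9 was not tested by edgeR because of the filter on low counts. With no filter its log2 fold change was -2.57 (edgeR, adjusted p = 0.00143) and with DESeq2 -2.55 (adjusted p = 0.0382), both called lower, whereas without wt replicate 3 or wt replicate 2 it again fell below the filter. The part of leukocyte RNA in this difference was not tested.

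Mmp14 (ENSMUSG00000000957, forward strand, chr14:54431612-54445364), the membrane-type MMP that activates pro-Mmp2, had 92, 194 and 196 reads in wt and 143, 70 and 111 in Tks5+/- LFs. With levels of 59.2, 104 and 72.7 CPM against 78.5, 41.0 and 56.8 CPM, the groups overlapped, with Tks5+/- replicate 1 above 2 of the wt libraries. The log2 fold change of -0.42 (standard error 0.25, 95% interval -0.94 to 0.10, edgeR, adjusted p = 0.184) was within the spread between replicates. It was called lower only with library totals as the scaling (-0.82, adjusted p = 0.0149), which moved the median of all genes to -0.47.

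Mmp23 (ENSMUSG00000029061, reverse strand, chr4:155650655-155653384), a membrane-inserted MMP of unusual structure that is released by furin-type cleavage, had 70, 133 and 76 reads in wt and 34, 23 and 29 in Tks5+/- LFs. The CPM were 45.1, 71.2 and 28.2 against 18.7, 13.5 and 14.8. Wt replicate 2 was the highest, wt replicate 3 the lowest of the wt libraries, and the groups did not overlap. The mean fell from 48.1 ± 21.7 CPM (SD, n = 3) to 15.7 ± 2.69 CPM (SD, n = 3), and the log2 fold change was -1.60 (standard error 0.31, 95% interval -2.24 to -0.96, edgeR, adjusted p = 2.38e-04). The longest transcript of Mmp23 has 1434 bases, and the 1171 tested genes within 25% of that length had a median log2 fold change of 0.40.

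Mmp11 (stromelysin-3; ENSMUSG00000000901), which furin activates inside the cell, was scarce, with 9, 13 and 20 reads in wt and 17, 8 and 15 in Tks5+/- LFs. The groups overlapped at 5.79 to 7.42 CPM and 4.68 to 9.33 CPM. Its log2 fold change of 0.10 (standard error 0.42, 95% interval -0.77 to 0.96, edgeR, adjusted p = 0.870) leaves a wide range open at this depth.

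Mmp19 (ENSMUSG00000025355, chr10:128790910-128800824), an MMP that cuts basement membrane components, was counted 49, 58 and 71 times in wt and 99, 52 and 83 times in Tks5+/- LFs. At 31.5, 31.0 and 26.3 CPM against 54.3, 30.4 and 42.5 CPM the groups overlapped, since Tks5+/- replicate 2 lay among the wt libraries. The log2 fold change of 0.53 (standard error 0.25, 95% interval 0.0014 to 1.05) was not called (edgeR, adjusted p = 0.0957). Without Tks5+/- replicate 2 it was 0.74 and was called higher (edgeR, adjusted p = 0.0276).

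These counts cannot be assigned to Mmp19 alone. Its last 789 bases overlap the end of Tmem198b, a gene on the opposite strand (chr10:128800036-128804370), with 44, 56 and 67 reads in wt and 94, 46 and 81 in Tks5+/- LFs, 88.5% to 97.6% of those of Mmp19 in every library. The same was seen for other tail-to-tail pairs, named here after their counts were seen. Mmp24, a membrane-type MMP, and BC029722 share 637 bases and had identical counts in all 6 libraries (115, 127, 202, 127, 104 and 110), and Adam17 had nearly the counts of Iah1 (94.3% to 99.5%). Reads of such shared ends cannot be assigned to 1 of the genes from these counts. Timp1 lies within Syn1 and Timp3 within Syn3, which are transcribed the other way, but Syn1 had only 1.84% to 5.42% of the counts of Timp1 and Syn3 at most 0.321% of those of Timp3. Mmp2, Mmp9, Mmp14 and Mmp23 overlap no annotated gene, Timp2 and Reck only genes on their own strand away from their ends, and Mmp11 overlaps Chchd10 away from its end.

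**Figure D2:**
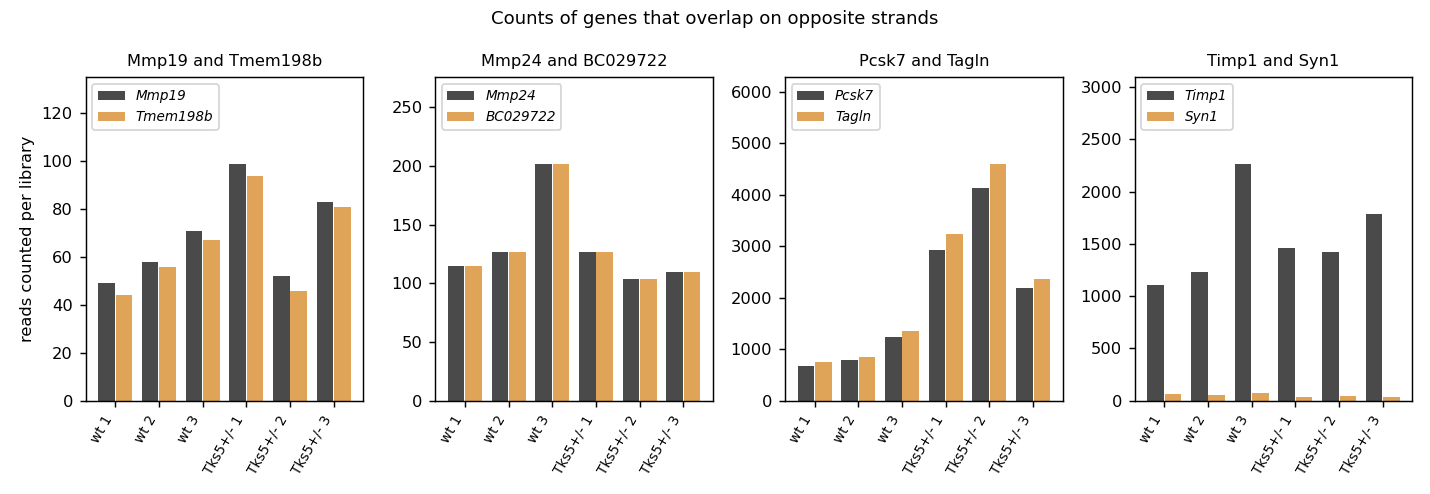
Reads counted per library for 4 pairs of genes that overlap on opposite strands, with dark bars for the MMP, convertase or TIMP gene and light bars for its partner. Mmp19 and Tmem198b, Mmp24 and BC029722, and Pcsk7 and Tagln rise and fall together at nearly the same counts, while Syn1 has at most 5.42% of the counts of Timp1.

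Timp3 (ENSMUSG00000020044, forward strand, chr10:86300372-86349506), the inhibitor bound to the ECM, was the most abundant of the 10 genes in each wt library and in Tks5+/- replicate 1, while Timp1 was above it in Tks5+/- replicates 2 and 3. Its counts were 4025, 4296 and 4504 in wt LFs and 1871, 1352 and 1480 in Tks5+/- LFs, or 2591, 2299 and 1670 CPM against 1027, 791 and 757 CPM. All Tks5+/- libraries were below all wt libraries, and wt replicate 3 was the lowest of its group. The mean fell from 2186 ± 470.5 CPM (SD, n = 3) to 858 ± 147 CPM (SD, n = 3), and the log2 fold change was -1.35 (standard error 0.22, 95% interval -1.81 to -0.89, edgeR, adjusted p = 4.03e-05).

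Timp2 (ENSMUSG00000017466, reverse strand, chr11:118301069-118355740), the inhibitor that also bridges Mmp14 and pro-Mmp2, was counted 954, 1342 and 1182 times in wt and 665, 474 and 626 times in Tks5+/- LFs. The CPM were 614, 718 and 438 against 365, 277 and 320. The groups did not overlap, although wt replicate 3 came near the highest Tks5+/- library. The mean went from 590 ± 141 CPM (SD, n = 3) to 321 ± 43.8 CPM (SD, n = 3), and the log2 fold change was -0.88 (standard error 0.22, 95% interval -1.33 to -0.43, edgeR, adjusted p = 0.00233).

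Timp1 (ENSMUSG00000001131, forward strand, chrX:20870166-20874735), the soluble inhibitor that binds pro-Mmp9, had 1108, 1229 and 2268 reads in wt and 1458, 1426 and 1790 in Tks5+/- LFs. At 713, 658 and 841 CPM against 800, 834 and 916 CPM the groups overlapped through wt replicate 3. The log2 fold change of 0.21 (standard error 0.20, 95% interval -0.21 to 0.62, edgeR, adjusted p = 0.420) was not called. Its direction turned with the scaling: it was -0.22 with library totals, -0.45 on the authors' normalized counts with limma and -0.41 after correction for transcript length, in none of which it was called.

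Reck (ENSMUSG00000028476), the anchored inhibitor of Mmp2, Mmp9 and Mmp14, had 4, 7 and 12 reads in wt and 13, 5 and 6 in Tks5+/- LFs. The groups overlapped, at 2.57 to 4.45 CPM and 2.93 to 7.13 CPM, and the gene was too scarce to be tested. With no filter, edgeR gave a log2 fold change of 0.23 (adjusted p = 0.804).

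The ends of the transcripts differ in length among the TIMPs. The longest 3′ UTR has 106 bases in Timp1, 2633 in Timp2 and 3607 in Timp3, and the longest transcripts have 883, 3709 and 4722 bases. Across all genes tested, log2 fold changes fell with transcript length (rho = -0.397 by Spearman's method, over genes and not over independent replicates). Genes within 25% of the length of Timp1 had a median log2 fold change of 0.72 (555 genes), those near Timp2 -0.11 (3416 genes) and those near Timp3 -0.29 (3074 genes). Timp2 and Timp3 thus lay below genes of like length, and so did Timp1 at 0.21, while genes near the length of Mmp2 (3078 bases) had a median of -0.032. After a correction of every library for this trend, Timp2, Timp3, Mmp2 and Mmp23 were still called lower. The part of transcript length in the values was not otherwise tested.

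**Figure D3:**
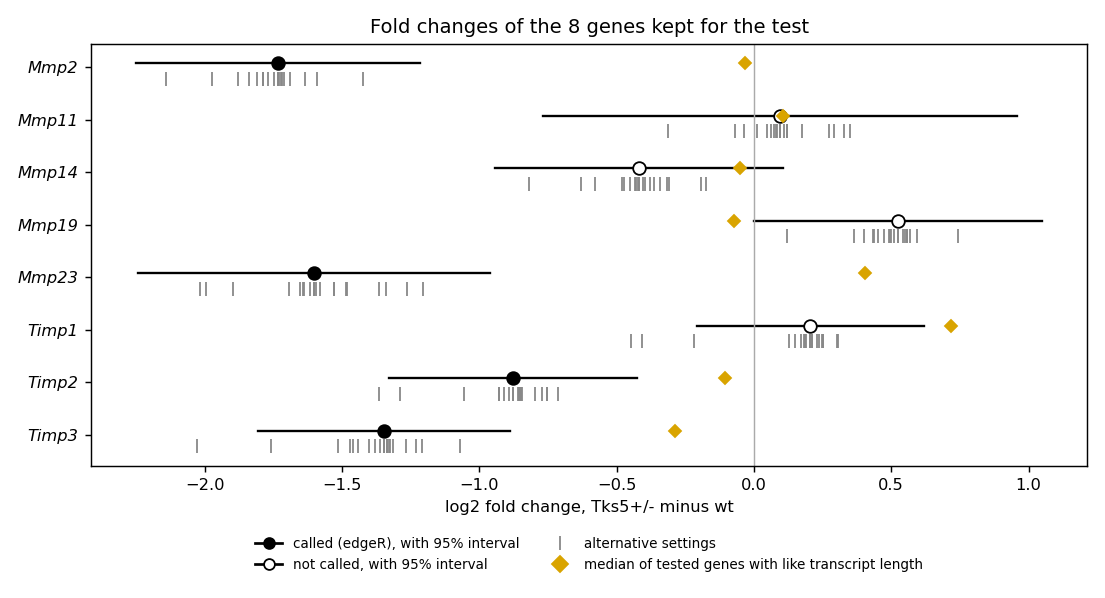
Log2 fold changes of the 8 tested genes (Tks5+/- minus wt) with 95% intervals, filled where called by edgeR and open where not, over ticks for the value under each alternative and a diamond for the median of tested genes within 25% of the same transcript length. Mmp2, Mmp23, Timp2 and Timp3 stay below 0 under every alternative, whereas Mmp11 and Timp1 lie on both sides.

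Sequence before the transcription start was given in the RefSeq promoter table (GRCm38.p6) for 7 of the 10 genes, all but Mmp2, Mmp9 and Mmp19. In the 250 bases before the start, a GC box (GGGCGG or its complement CCGCCC), the element bound by Sp1-type factors, was found in 6 of the 7 genes, Mmp23 being the exception, beside 32.7% of all 32851 promoters. An AP-1 element (TGAGTCA or TGACTCA) was found in none, beside 4.46% of all promoters, and a TATA box (TATAAA or TTTATA) in none, beside 12.4%. The GC content of these 250 bases was 54.4% to 68.4% in the 7 genes, beside a median of 52.4% over all promoters. The part of base composition in these matches was not tested. Because the GC box was present both in genes called lower (Timp2, Timp3) and in genes not called (Mmp11, Mmp14, Timp1), the windows of the 3 TIMPs and of Mmp14 are shown, 5′ to 3′ on the strand of the gene, with the GC box nearest the start in capitals. They lie at chrX:20870136-20870165 for Timp1, chr11:118355431-118355460 for Timp2, chr10:86300382-86300411 for Timp3 and chr14:54431568-54431597 for Mmp14. Each window lies before the RefSeq start. The GENCODE bounds given above for Timp2 and Timp3 begin further upstream, so that the windows of these genes lie within those bounds.
Timp1: atctttgggtttatcctggggcCCGCCCct
Timp2: ctggggagggctGGGCGGcgcggcgcggga
Timp3: cggtccgggccggctCCGCCCtgtcgcccc
Mmp14: ggagggcattggggcggGGGCGGaggagag
The GC box begins 8 bases before the RefSeq start in Timp1, 15 in Timp3, 37 in Timp2 and 13 in Mmp14, which has a second one, in lower case in the window, 19 bases before the start. A match of letters is a description of these windows and shows no binding.

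Timp3 made up a smaller and Timp1 a larger share of the TIMP counts in Tks5+/- LFs, while the level of Timp1 was not called. Of all TIMP counts, Timp3 made up 61.8 ± 4.80% (SD, n = 3) in the wt and 42.1 ± 4.46% (SD, n = 3) in Tks5+/- LFs, and Timp1 21.5 ± 6.04% (SD, n = 3) and 42.1 ± 4.96% (SD, n = 3). By library, the share of Timp1 was 18.2%, 17.9% and 28.5% in wt LFs and 36.5%, 43.9% and 45.9% in Tks5+/- LFs. The groups did not overlap for Timp1 or Timp3, and wt replicate 3 stood nearest to the lowest Tks5+/- library. The share of Timp2 was 16.7 ± 2.50% (SD, n = 3) and 15.8 ± 1.07% (SD, n = 3) and overlapped. A share within a library does not depend on the scaling between libraries, but it does move with the trend over transcript length. Genes near the length of Timp1 had a median log2 fold change of 0.72 and those near Timp3 of -0.29, and after the correction for length the values were -0.41 for Timp1 and -1.07 for Timp3. The shares were not tested.

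Among the counts of the 6 MMPs, Mmp2 made up 50.1 ± 4.61% (SD, n = 3) in the wt and 28.0 ± 4.43% (SD, n = 3) in Tks5+/- LFs. The share of Mmp14 was 19.0%, 26.2% and 24.1% in wt LFs and 34.96%, 34.3% and 31.3% in Tks5+/- LFs, without overlap. Thus Mmp14 was the largest share in 2 of the 3 Tks5+/- libraries and Mmp2 in each wt library. The level of Mmp14 was not called and its log2 fold change was below 0 (-0.42), so that its larger share is no rise in its level. The share counted to Mmp19 was 8.89 ± 1.15% (SD, n = 3) and 24.4 ± 1.06% (SD, n = 3) without overlap, with the limit given above for its reads.

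**Figure D4:**
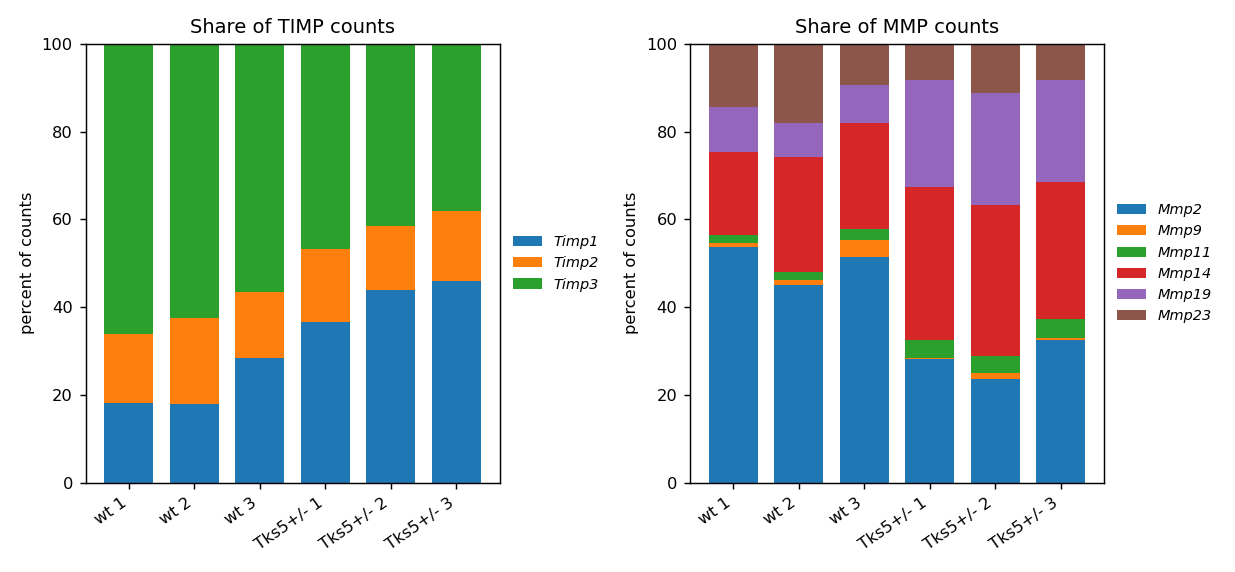
Shares of the counts of the 3 TIMPs (left) and of the 6 MMPs (right) in each of the 6 libraries, as stacked bars that sum to 100 percent. Timp1 takes 17.9% to 28.5% of the TIMP counts in wt LFs and 36.5% to 45.9% in Tks5+/- LFs, and Mmp2 takes 44.9% to 53.8% of the MMP counts in wt LFs and 23.5% to 32.4% in Tks5+/- LFs.

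Set against its inhibitors within each library, Mmp2 was lower relative to Timp1 in Tks5+/- LFs. For each Mmp2 count there were 4.25, 3.69 and 5.41 Timp1 counts in wt LFs and 12.7, 29.7 and 15.6 in Tks5+/- LFs. The groups did not overlap, and the log2 ratio of Mmp2 to Timp1 differed by -2.04 (-2.29 to -1.68 with each library left out in turn, -1.54 on the authors' normalized counts). This ratio moves with the trend over transcript length. Genes near Timp1 in length had a median log2 fold change of 0.72, and those near Mmp2 of -0.032. Relative to Timp2 the log2 ratio of Mmp2 differed by -0.97, again without overlap (-0.62 on the authors' normalized counts), and relative to Timp3 by -0.49, with overlap. The last difference was -0.17 without Tks5+/- replicate 2, -0.73 without Tks5+/- replicate 3 and 0.041 on the authors' normalized counts. The log2 ratio of Mmp14 to Timp3 was higher in Tks5+/- LFs by 0.91 without overlap (0.59 without wt replicate 1). Those of Mmp14 to Timp1 (-0.64) and to Timp2 (0.43) overlapped. The first was -0.34 without wt replicate 2, -0.42 without Tks5+/- replicate 2 and 0.10 on the authors' normalized counts, and the second 0.20 without wt replicate 1 and 1.02 on the normalized counts. The log2 ratio of Mmp2 to Mmp14, its activator, went from 1.13 ± 0.36 (SD, n = 3) to -0.27 ± 0.30 (SD, n = 3), without overlap. RNA ratios say nothing of the proteins or of their activity, which were not measured here, and the ratios were not tested.

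Libraries of a genotype did not vary alike over the 10 genes. Tks5+/- replicate 2 was the lowest of its group, on the CPM scale, for 7 of the 10 genes and Tks5+/- replicate 1 the highest for 8 of 10. Among wt libraries, replicate 3 was the lowest for 5 genes (Mmp2, Mmp19, Mmp23, Timp2, Timp3) and the highest for 4 (Mmp9, Mmp11, Timp1, Reck). Without wt replicate 3, Mmp23 (-1.90), Timp2 (-1.06) and Timp3 (-1.51) were called lower with larger log2 fold changes than with it. The coefficient of variation in wt LFs ran from 6.84% for Mmp2 to 70.5% for Mmp9.

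The genes whose pattern over the 6 libraries was most like that of Mmp2, among 3253 genes with a mean of at least 50 CPM, were Gm45472, Slc6a8 and Gaa, with a root mean square difference of centred log2 CPM of 0.112, 0.172 and 0.175. Gm45472 begins 233 bases past the end of Mmp2 on the opposite strand, with 149, 216 and 297 reads in wt and 66, 32 and 72 in Tks5+/- LFs. Whether its counts are reads of Mmp2 was not tested. Most like Timp2 were Peak1, Gfpt2 and Celf2, at 0.0929, 0.107 and 0.118.

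The groups of related genes stand beside 22.1% called lower and 22.8% called higher over all genes tested. Of 18 other MMP and TIMP genes, 14 had a count in at least 1 library and 6 were tested, of which 3 were called lower and 2 higher, a median log2 fold change of -0.53. Mmp8, the collagenase named for neutrophils, went from 138, 165 and 108 CPM in wt LFs to 9.88, 12.3 and 12.8 CPM in Tks5+/- LFs (log2 fold change -3.54). The neutrophil markers summed to at most 51.9 CPM in any library, nearly all of it S100a8, and CPM of different genes does not compare amounts of cells. Mmp12, the elastase of macrophages, had its highest level, 171 CPM, in wt replicate 3, and its log2 fold change of -3.72 (edgeR, adjusted p = 0.00527) was not called without Tks5+/- replicate 2 (adjusted p = 0.0544). Without wt replicate 3 it was -2.93 (edgeR, adjusted p = 9.45e-08). Mmp3, a stromelysin that can activate pro-Mmp9, fell by 0.85 on the log2 scale, a call that was lost when wt replicate 1 was left out (adjusted p = 0.0765). In the opposite direction, the stromelysin Mmp10 (3.73) and the collagenase Mmp13 (2.41) rose, and both were called under all 20 alternatives. The part of leukocyte RNA in the values of Mmp8 and Mmp12 was not tested. No other tested gene of the group was called, and Timp4 had 1 count in all.

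The convertases cut the pro-domain of Mmp11, Mmp14 and Mmp23. All 4 were tested, and 2 were called lower and 1 higher. Furin had 284, 224 and 207 CPM in wt LFs and 113, 72.0 and 95.2 CPM in Tks5+/- LFs, without overlap (log2 fold change -1.35, standard error 0.22, edgeR, adjusted p = 3.67e-05). Pcsk6 fell by 3.23 on the log2 scale, from 34.8 ± 11.8 CPM (SD, n = 3) to 3.51 ± 3.21 CPM (SD, n = 3). With 50, 89 and 66 counts in wt and 4, 2 and 14 in Tks5+/- LFs, Pcsk6 was kept by the filter on low counts through the wt libraries. Only a lower level was open to it, so its call adds nothing to these counts. The counts given to Pcsk7 rose (1.95, edgeR, adjusted p = 1.71e-06), but they were 680, 795 and 1247 in wt LFs and 2929, 4125 and 2188 in Tks5+/- LFs where Tagln, the smooth muscle protein whose end overlaps that of Pcsk7 on the other strand, had 745, 845 and 1351 and 3229, 4604 and 2361. A rise of Pcsk7 cannot be told apart from that of Tagln.

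Proteins that hold gelatinases and Mmp14 at the cell surface, or take them up, were 12, of which 11 were tested, with 5 lower, 3 higher and a median log2 fold change of -0.26. Lrp1, the receptor that clears complexes of Mmp2 and Mmp9, fell by 1.45 on the log2 scale (edgeR, adjusted p = 3.19e-05), from 124 ± 11.7 CPM (SD, n = 3) to 45.4 ± 13.6 CPM (SD, n = 3). Thbs2 (-0.77), whose protein delivers Mmp2 to Lrp1, and the integrin subunits Itgav (-0.84) and Itgb3 (-1.26), which together form a docking receptor of Mmp2, were lower. After the correction for transcript length Thbs2, Itgav (-0.34, edgeR, adjusted p = 0.242) and Itgb3 were not called. Nor was Thbs2 without Tks5+/- replicate 3, or Itgb3 with DESeq2. Cd63, a tetraspanin that binds Timp1, rose from 6194 ± 278 CPM (SD, n = 3) to 14348 ± 4320 CPM (SD, n = 3), by a log2 fold change of 1.21 (edgeR, adjusted p = 2.41e-04), and Cd9 (0.75), another tetraspanin, was higher as well. Lrp1, at -1.86 to -0.58, and Cd63 were called under all 20 alternatives. Cd9 was called under 12 of 20, and without wt replicate 3 its log2 fold change was 1.199 (edgeR, adjusted p = 5.27e-04). The call of Itgb3 was lost when wt replicate 3 was left out (adjusted p = 0.0616), where 3 of the group were lower and 2 higher, and without wt replicate 2 or Tks5+/- replicate 2 only 1 was higher.

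The ADAM sheddases, several of which Timp3 inhibits, were 7, all tested, with 2 lower and 0 higher, beside the shares of 22.1% and 22.8% over all genes tested, and a median of -0.22. Adam15, which has gelatinase activity, fell by 1.95 on the log2 scale (edgeR, adjusted p = 2.35e-07) and was called under all 20 alternatives. Adam8, an ADAM of leukocytes whose end overlaps Gm16201, fell by 2.11, but without wt replicate 3 it was -1.14 and not called (edgeR, adjusted p = 0.0766), which left 1 of the 7. With 9, 9 and 6 counts in Tks5+/- LFs, Adam8 was kept by the filter on low counts through the wt libraries alone. Only a lower level was open to it, so its call adds nothing to its counts. Of 8 genes for the transport of Mmp14, 6 were matched and tested, and Kif5b, the kinesin heavy chain that carries Mmp14 vesicles to podosomes in macrophages, fell by 1.65 (edgeR, adjusted p = 3.16e-06) from 114 ± 16.9 CPM (SD, n = 3) to 36.0 ± 2.08 CPM (SD, n = 3). Rab5a (-1.36), an endosomal GTPase, was not called without wt replicate 1 or 2 or Tks5+/- replicate 2 or 3, which left Kif5b alone. It had 13, 20 and 15 counts in wt and 7, 4 and 6 in Tks5+/- LFs. Rab5a was thus likewise kept by the filter through the wt libraries alone, and only a lower level was open to it. The end of Rab5a overlaps Pp2d1 on the opposite strand, which had 25% to 86.7% of its counts. None of the 6 transport genes was higher.

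Of 15 ECM genes whose proteins are substrates or partners of these proteases, 14 were tested, with 8 lower and 1 higher (6 and 3 after the correction for transcript length) and a median of -0.79. Those with the smallest adjusted p were the small proteoglycan Bgn (-2.03), the elastic fibre protein Eln (-2.83), the basement membrane collagens Col4a2 (-1.82) and Col4a1 (-1.32), fibronectin, Fn1 (-1.55), and the laminin chain Lamc1 (-1.26). All but Lamc1, which was not called after the correction for transcript length (adjusted p = 0.0703), were called under all 20 alternatives. The 1 gene higher was Col3a1 (0.64, edgeR, adjusted p = 0.0451), named after its value was seen, and it was not called without wt replicate 1 or 3 or Tks5+/- replicate 1 or 3. Both collagen IV genes, whose products the gelatinases cut, were lower in Tks5+/- LFs, as were Mmp2 and 22.1% of all genes tested. A link between them was not tested.

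**Figure D5:**
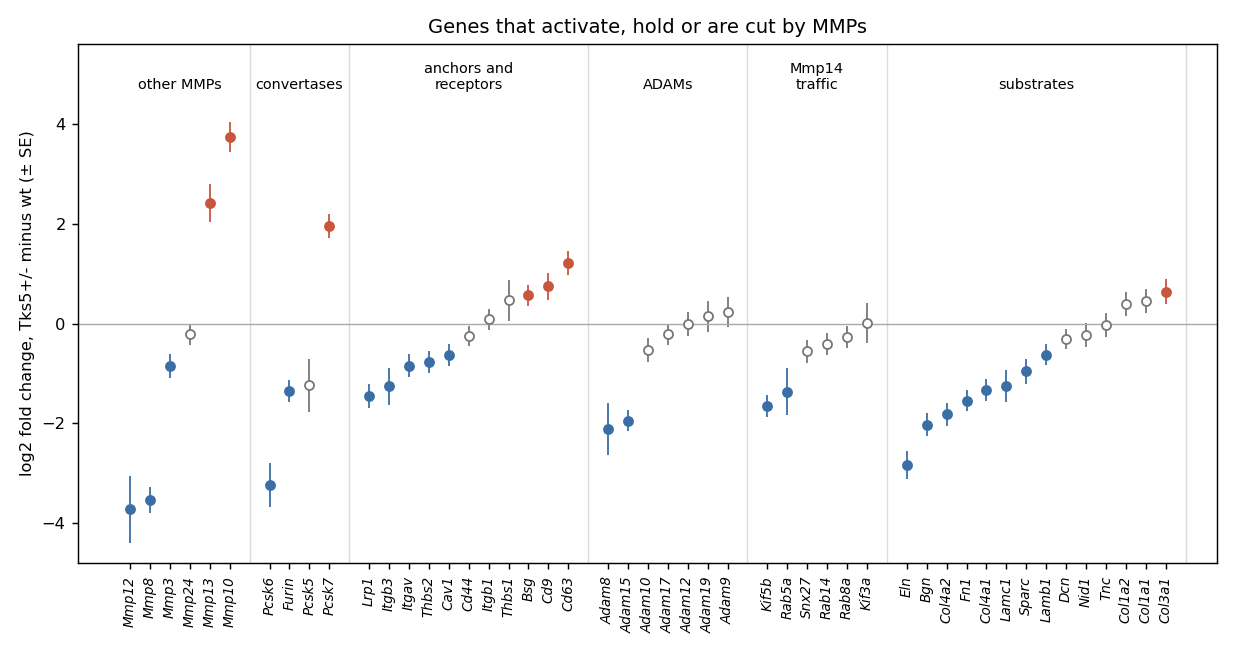
Log2 fold changes (Tks5+/- minus wt, with standard errors) of the tested genes of 6 groups around the MMPs and TIMPs, blue where called lower, red where called higher and open where not called. Mmp12 and Mmp8 lie lowest among the other MMPs at -3.72 and -3.54 and Mmp10 highest at 3.73, and the ECM substrates run from -2.83 for Eln to 0.64 for Col3a1.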

How the data were processed

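RNA of 6 libraries was prepared by the authors with the QuantSeq kit for transcript ends and sequenced on an Ion Proton. Reads were trimmed with Trim Galore and aligned to GRCm38 with HISAT2, then Bowtie2, and the authors counted them on 3′ UTR regions with metaseqR2 and deposited raw counts per gene. The deposited normalized counts, made by the authors with EDASeq and rounded, were used as a score in 1 alternative. Whether counting used the strand is not given in the sources used here. Per the study, the counted regions had a minimum length and a short flank past the UTR end, so that reads just past a gene could be counted to it.

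Counts were tested by the robust quasi-likelihood F test of edgeR 4.0.16 under R 4.3.3, after filterByExpr and TMM scaling, over 10346 genes, and called at an adjusted p (Benjamini-Hochberg) under 0.05 with a change of 1.2-fold or more. CPM used the scaled library sizes of 1553712 to 2697008 counts, where 1 count was worth 0.371 to 0.644 CPM. DESeq2 1.42.0, limma 3.58.1, other scalings and filters, corrections for GC content and transcript length, a replicate block and leaving out each library served as alternatives. The edgeR step was run on simulated counts with far fewer changed genes than were called here, which checks the code and not these calls. Symbols and coordinates were those of GENCODE for GRCm38, with 55104 of 55364 genes matched. The 10 genes and the gene lists were chosen with earlier results of these data known. Named were all 10 genes, up to 6 called genes of each list by adjusted p, and the 3 genes most like Mmp2 and Timp2. No set tests were run.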

Additional observations from a re-analysis of the deposited data

How the results depend on the processing

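Mmp2, Mmp23, Timp2 and Timp3 were called lower under all 20 alternatives, with log2 fold changes of -2.14 to -1.42, -2.02 to -1.21, -1.37 to -0.71 and -2.03 to -1.07. Genes called ran from 3705 to 5306 of those tested, and 4 or 5 of the 10 genes were lower, the fifth being Mmp9 or, with library totals, Mmp14 (-0.82). The number higher was 0 to 1 with each library left out. Mmp11 turned to -0.31 with library totals, -0.036 with the length correction and lay between -0.070 (without Tks5+/- replicate 1) and 0.35 with each library left out, and Timp1 to -0.22 with library totals, -0.41 with the length correction and -0.45 on the authors' normalized counts. On these the log2 ratios of Mmp14 to Timp1, Timp2 and Timp3 differed by 0.10, 1.02 and 1.68, and those of Mmp2 by -1.54, -0.62 and 0.041. Library totals moved the median of all genes to -0.47 and gave 3944 lower and 1362 higher, against 2286 and 2356. Of the lists, with library totals 1 anchor and 0 substrates were higher and 4 ADAM and 5 traffic genes lower. DESeq2 gave 3 anchors and 1 traffic gene lower, limma-voom 1 traffic gene. The length correction gave 2 anchors lower, 1 anchor and 3 substrates higher. The test against a fold change of 1.2 gave 1 anchor and 0 substrates higher. Substrates higher were 0 with upper-quartile scaling, at least 10 counts in every library or the authors' normalized counts, 2 with the GC correction and 3 with the replicate block and GC correction. At least 10 counts in every library left 1 convertase lower. With each library left out, 3 to 6 anchors, 1 to 2 ADAM and 1 to 2 traffic genes were lower, and 1 to 3 anchors and 0 to 1 substrates higher. The replicate numbers did not pair the libraries (same-number correlations of deviations -0.0010, -0.064 and 0.082). The replicate block called 4668 genes, 4 of the 10 lower and 0 higher. The cause of these changes was not tested. Depth limits Mmp9, Mmp11 and Reck, at 1 to 31 counts a library.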
